A study of Mus musculus with 6 samples.

Results

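C-type lectin receptors are surface proteins with which macrophages and dendritic cells read sugars and lipids on microbes and on dying cells. The 9 receptor genes described here are Clec7a, Clec4n, Clec4d, Clec4e, Clec10a, Clec4a2, Clec4a3, Clec12a and Mrc1, chosen by gene symbol out of 52459 genes in the count table. All 9 were found once, and all 9 were among the 14857 genes with enough reads for a test. RNA was sequenced from C57BL/6 mouse bone marrow cells grown with GM-CSF (a growth factor under which myeloid precursors mature into macrophage-like and dendritic-like cells). On day 7, one set of cultures received DMSO, the solvent, and the other RIP1i, and both were left overnight. Each treatment had 3 libraries, and nothing in the labels gives a genetic alteration, the compound's name, its dose or the age of the mice. RIP1 is the kinase that relays TNF receptor signals, and the comparison asks how the inhibitor alters the transcriptome of these cells. The labels do not say whether the 3 libraries of a treatment came from separate mice or cultures, so p-values measure only the spread between libraries, which may be technical.

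The receptors divide by how they signal. Dectin-1 (Clec7a) carries its own tyrosine motif, whereas dectin-2 (Clec4n), MCL (Clec4d) and Mincle (Clec4e) borrow the signalling chain FcR-gamma, and both routes lead through the kinase SYK to the CARD9, BCL10 and MALT1 complex and to NF-kB. DCIR1 (Clec4a2) and MICL (Clec12a) hold inhibitory motifs that recruit phosphatases. MGL1 (Clec10a) and the mannose receptor (Mrc1) mainly bind and take up glycoproteins, and both are widely used as markers of alternatively activated macrophages.

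The libraries held 40264902 to 44862310 counts. Markers of macrophages were abundant in both groups, with all 11 tested, and their summed level ran from 52683 to 60213 CPM (TMM-scaled reads relative to library size) in DMSO and from 45948 to 55099.7 CPM in RIP1i. Lyz2 (lysozyme) alone supplied 86.8% to 89.8% of that sum, and the other 10 summed to 5804 to 6317 CPM in DMSO and 5801 to 6082 CPM in RIP1i. Of 11 dendritic cell markers 10 were tested. The list summed to 1406 to 1565 CPM in DMSO and 1506 to 1677 CPM in RIP1i. Itgax alone supplied 82.2% to 84.95% of that sum, and the others came to 232 to 257 CPM in DMSO and 227 to 275 CPM in RIP1i. Neutrophil markers, with none of the 12 at 0, summed to 252 to 656 CPM in DMSO and 245 to 684 CPM in RIP1i. Stromal markers, with none of the 13 at 0, summed to 195 to 511 CPM in DMSO and 132 to 333 CPM in RIP1i, where DMSO replicate 2 was the highest and RIP1i replicate 2 the lowest library. Fn1 supplied 20.0% to 47.3% of that sum. Without it the others came to 103 to 409 CPM in DMSO and 90.1 to 264 CPM in RIP1i, with the same highest and lowest libraries. Markers of mast cells, basophils and eosinophils summed to 83.1 to 106 CPM in DMSO and 91.4 to 96.6 CPM in RIP1i. Siglecf supplied 61.5% to 83.5% of that sum, and without it the others came to 13.7 to 40.9 CPM in DMSO and 24.6 to 36.8 CPM in RIP1i. Of 12 lymphocyte markers 3 reached the level needed for a test. Mitochondrial transcripts made up at most 1.73% of counts in a DMSO library and 1.76% in a RIP1i library.

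Most of the receptor genes lie together. Clec4a3, Clec4a2, Clec4n, Clec4d and Clec4e stood within 337 kb of chromosome 6 (mm10 coordinates from GENCODE M21), and Clec12a and Clec7a within another 130 kb of the same chromosome. The remaining genes, Clec10a and Mrc1, are on chromosomes 11 and 2. Clec4d (chromosome 6, 123262111 to 123275265, plus strand) and Clec4e (chromosome 6, 123281789 to 123289870, minus strand) are neighbours whose 3′ ends face each other across 6523 bases. Clec7a lies at 129461591 to 129472779 on the minus strand of chromosome 6, and Clec4n at 123229843 to 123247021 on the plus strand.

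Promoters are shown for Clec7a, the receptor with the smallest p-value in the comparison, and for the neighbours Clec4d and Clec4e, whose levels lay far apart. Each is the 250 bases before a RefSeq transcription start (GRCm38.p6). The capitals mark GAGGAA, the core letters of many sites of the myeloid factor PU.1, or its reverse complement TTCCTC. The windows are chr6:129472780-129473029 on the minus strand for Clec7a, chr6:123261857-123262106 on the plus strand for Clec4d and chr6:123289872-123290121 on the minus strand for Clec4e.
Clec7a: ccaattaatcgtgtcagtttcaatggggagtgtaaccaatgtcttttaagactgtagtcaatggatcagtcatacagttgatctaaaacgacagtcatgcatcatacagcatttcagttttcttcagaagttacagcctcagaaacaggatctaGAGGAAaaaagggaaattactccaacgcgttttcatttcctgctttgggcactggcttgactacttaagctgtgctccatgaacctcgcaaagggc
Clec4d: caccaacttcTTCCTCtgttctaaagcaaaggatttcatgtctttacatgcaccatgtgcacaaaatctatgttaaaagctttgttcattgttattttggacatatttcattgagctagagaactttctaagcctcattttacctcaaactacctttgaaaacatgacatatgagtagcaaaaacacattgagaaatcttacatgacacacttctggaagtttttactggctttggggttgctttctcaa
Clec4e: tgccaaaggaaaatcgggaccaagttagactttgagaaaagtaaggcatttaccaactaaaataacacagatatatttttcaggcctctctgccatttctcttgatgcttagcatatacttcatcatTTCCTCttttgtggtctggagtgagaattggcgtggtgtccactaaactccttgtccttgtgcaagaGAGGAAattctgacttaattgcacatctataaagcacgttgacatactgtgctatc
The match began 96 bases before the start of Clec7a and 240 bases before that of Clec4d, and Clec4e had matches at 123 and 56 bases. RefSeq windows were matched for 7 of the 9 genes, 9 windows in all, since Clec7a and Clec4a3 have a pair of overlapping windows each. GAGGAA occurred on either strand in 7 of these 9 windows, against 23.3% of all 32851 windows of the same length. The overlapping Clec7a windows hold the same site, so that by gene it was 6 of 7. TTNNGNAA, a loose form of the C/EBP site, was searched on both strands too and occurred in 5 of the 9 (5 of 7 genes), against 36.8% of all windows, and no match of one motif overlapped a match of the other. These are matches of letters, and binding was not measured.

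The receptors covered a wide range of levels. On the deposited FPKM scale (fragments per kilobase of gene relative to library size, which allows genes to be compared), the mean over the 6 libraries ran from 3.29 for Clec12a to 1179 for Clec4n, a 359-fold range. Clec4n ranked 26th, Clec7a 46th, Clec4d 214th and Mrc1 263rd among the 27262 genes with at least 1 count. The other 5 formed a much lower group, in which Clec4a2, Clec10a, Clec4e and Clec4a3 lay above 83.7% to 87.8% of detected genes and Clec12a above 70.8%. The spread over all 6 libraries was small against these distances, with a coefficient of variation of 7.04% to 14.8%.

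**Figure D1:**
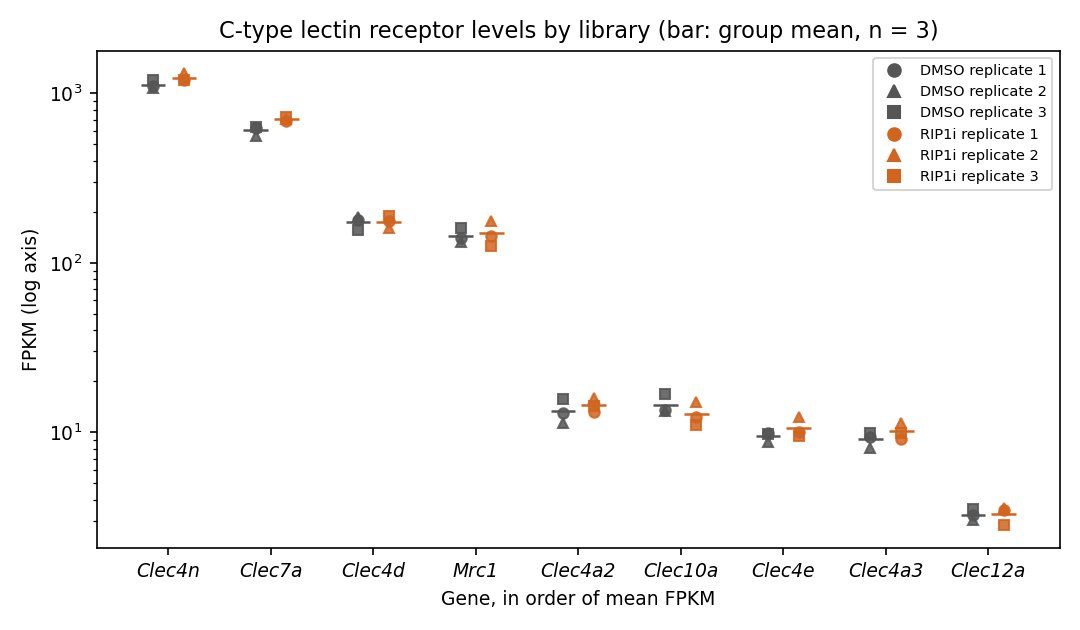
Deposited FPKM (log axis) of each receptor gene in each of the 6 libraries, DMSO in grey and RIP1i in orange, with a marker shape per replicate number and a bar at each group mean (n = 3). Clec4n and Clec7a lie at or above 560.2 FPKM in every library, Clec4d and Mrc1 between 126 and 189 FPKM, and the other 5 genes at or below 16.8 FPKM.

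Neighbours in the order of levels were not all distinct. Clec4n at 1179 FPKM stood above Clec7a at 656 FPKM, and Clec7a was 3.75-fold above Clec4d, with no overlap between the 6 values of one gene and those of the next. Clec4d and Mrc1 overlapped, and a gap of 10.6-fold separated Mrc1 from the next gene. Among Clec4a2, Clec10a, Clec4e and Clec4a3 the range of each gene overlapped that of its neighbour in the order. Within every single library, however, Clec4a2 and Clec10a both stood above Clec4e and Clec4a3 on this scale. The order of Clec4a2 against Clec10a changed between libraries, as did that of Clec4e against Clec4a3, so these were not resolved. Clec12a lay apart below them, its highest value of 3.58 FPKM under the lowest value of 8.08 FPKM of Clec4a3.

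The gene length used for the FPKM bears on this order. The length implied by the deposited counts and FPKM matched the merged length of all annotated exons within 1% for 86.5% of 6265 well-covered genes, and for all 9 receptors. That length includes transcripts with retained introns, which for Clec4e gives 4966 bases where the longest coding transcript has 2518, and for Clec12a 5528 where it has 2502. Rescaled to the longest coding transcript, an alternative chosen after seeing the data, Clec4e stood at 19.8 in place of 10.1 and came next after Mrc1, above Clec10a at 17.1 and Clec4a2 at 16.4, though its range overlapped that of Clec10a. The first 4 places were unchanged, and the distance from Clec4d to its neighbour Clec4e was 10.7-fold in place of 17.4-fold. Which transcripts these cells make was not measured.

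**Figure D2:**
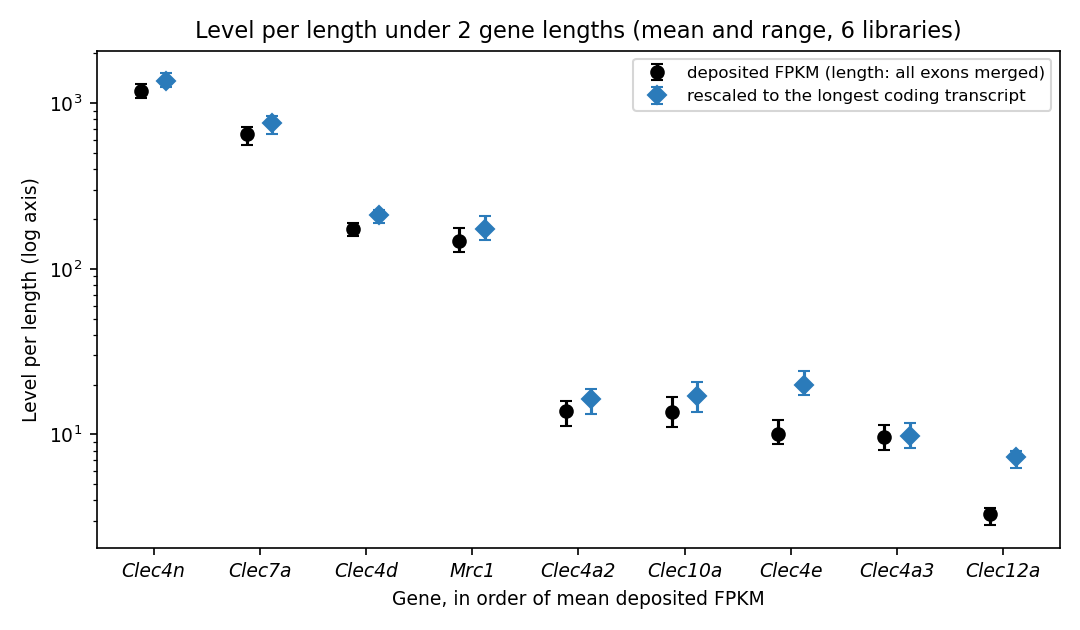
Level per length (log axis) of each receptor as the deposited FPKM (black circles) and rescaled to the longest coding transcript (blue diamonds). Symbols are means over the 6 libraries and bars run from the lowest to the highest library. Clec4e moves from 10.1 to 19.8 and Clec12a from 3.29 to 7.26, while Clec4a3 stays near 9.65.

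No receptor gene differed between the treatments beyond the threshold. In the edgeR quasi-likelihood fit, with Benjamini-Hochberg adjustment over the whole table, 0 of 9 had an adjusted p under 0.05, as did 0 of 14857 genes (0%), and the adjusted p of the receptors ran from 0.777 to 0.985. DESeq2 called 2 genes and limma-voom 0 in the whole table, none of them a receptor. At an unadjusted p under 0.05 in edgeR there was 1 receptor, Clec7a, against 6.21% of all genes. DESeq2 and limma-voom put Clec4n there too, at 0.042 and 0.049, along with 571 and 910 of the 14857 genes. Of the 9 receptors 8 were fitted higher in RIP1i, against 51% of all genes, and their median log2 fold change (RIP1i minus DMSO) was 0.13, against 0.0025 over all genes tested. That count and median depended on which libraries were included. Without RIP1i replicate 2, 6 of 9 were fitted higher with a median of 0.047, without DMSO replicate 2 it was 6 of 9 with 0.062, and without RIP1i replicate 1 it was 6 of 9 with 0.15. With both replicates numbered 2 left out, an alternative chosen after seeing the data, 3 of 9 were fitted higher and the median was -0.019. In the same fit as the receptors' 8 of 9, all 13 stromal markers were fitted lower in RIP1i (median -0.41, none passed) and 9 of 11 macrophage markers were fitted lower (median -0.050, none passed). Their part in the receptor values was not tested. In these bulk samples, more RNA of a receptor per cell and more cells of a kind that carries it cannot be told apart.

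**Figure D3:**
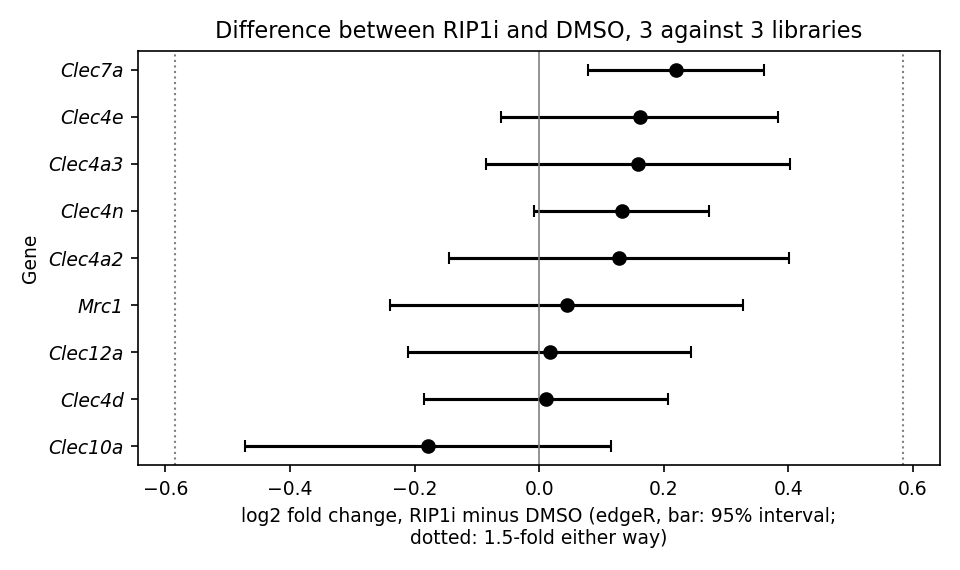
Fitted log2 fold change (RIP1i minus DMSO, edgeR) of each receptor, with its 95% confidence interval from 3 against 3 libraries. Dotted lines mark 1.5-fold in either direction, and all 9 intervals lie between them. Clec7a at 0.22 is the one whose interval leaves out 0.

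Among the activating receptors, Clec7a (dectin-1, the receptor for fungal beta-glucans) was the one furthest from equality. It stood at 1648, 1482 and 1674 CPM in DMSO replicates 1 to 3 and at 1819, 1850 and 1927 CPM in RIP1i replicates 1 to 3. Every RIP1i library lay above every DMSO library, which was also so on the FPKM scale. The group means were 1601 ± 104 and 1865 ± 55.5 CPM (SD, n = 3 each), a log2 fold change of 0.22 ± 0.060 (SE) with a 95% interval from 0.079 to 0.36, or 16.5% more in RIP1i with limits of 5.64% and 28.5%. Its unadjusted p of 0.0073 in edgeR was reached or undercut by 97 of the 14857 genes, and the adjusted p was 0.777. Leaving out any 1 library gave log2 fold changes from 0.16 to 0.25. With no overlap between the groups the sign was bound to stay, so these fits bear only on the size. The annotation of Clec7a is unusual in that GENCODE M21 files the gene as a polymorphic pseudogene while listing protein-coding transcripts for it. No stretch of 50 bases of its longest coding transcript occurred in a transcript of another gene.

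Clec4n (dectin-2, which binds mannans of fungi) stood at 1566, 1540 and 1695 CPM in DMSO replicates 1 to 3. In RIP1i replicates 1 to 3 it stood at 1698, 1858 and 1709 CPM. The groups were separated only narrowly, by DMSO replicate 3 at 1695 and RIP1i replicate 1 at 1698 CPM. On the FPKM scale, whose library factor is the median of ratios, they overlapped, with 1197 FPKM in DMSO replicate 3 and 1192 FPKM in RIP1i replicates 1 and 3. The log2 fold change was 0.13 ± 0.060 (SE) with an interval from -0.0075 to 0.27, an edgeR adjusted p of 0.777, and it was 0.079 without RIP1i replicate 2. Groups did not overlap with RIP1i higher for 2 of 9 receptors in TMM-scaled CPM, against 7.36% of all genes, and for 1 of 9 in FPKM, against 6.99%. With RIP1i lower there were 0 of 9, against 6.18% of all genes in CPM and 6.58% in FPKM.

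Clec4d and Clec4e, the receptors for mycobacterial glycolipid whose proteins pair with each other, did not follow one pattern. Clec4d (MCL) stood at 286, 301 and 251 CPM in DMSO replicates 1 to 3 and at 282, 257 and 305 CPM in RIP1i replicates 1 to 3. Its groups overlapped fully, with means of 279 ± 25.7 and 281 ± 24.2 CPM (SD, n = 3 each) and a log2 fold change of 0.011 (interval -0.19 to 0.21), which turned to -0.0011 with upper-quartile scaling. Clec4e (Mincle) stood at 49.5, 43.6 and 48.5 CPM in DMSO and at 50.1, 60.7 and 47.6 CPM in RIP1i, in the same order of replicates. RIP1i replicate 2 stood apart at the top, and the other 5 libraries lay within 43.6 to 50.1 CPM. The fitted difference of Clec4e was 0.16 (interval -0.061 to 0.38), and without RIP1i replicate 2 it was 0.038. RIP1i replicate 2 was thus the highest library for Clec4e and the next to lowest for Clec4d.

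The DCIR genes were low and followed similar libraries. Clec4a2 (DCIR1, an inhibitory receptor) stood at 38.1, 33.2 and 45.6 CPM in DMSO replicates 1 to 3 and at 38.9, 46.6 and 42.3 CPM in RIP1i replicates 1 to 3. Clec4a3 (DCIR3, a close relative) stood at 12.5, 10.8 and 13.1 CPM in DMSO and at 12.1, 15.1 and 13.4 CPM in RIP1i. For both genes DMSO replicate 2 was the lowest and RIP1i replicate 2 the highest library, and the groups overlapped. Their log2 fold changes were 0.13 (interval -0.15 to 0.40) and 0.16 (interval -0.085 to 0.40), and without RIP1i replicate 2 they were 0.047 and 0.061. Of the 50-base stretches of the longest coding Clec4a2 transcript, 8.92% also occurred in other genes, first among them the neighbouring relative Clec4a4, which had 3 to 16 counts (named after its values were seen). The pseudogene Gm44132 overlaps Clec4a2 as well. How reads matching several genes were counted is not given in the sources used here.

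Clec12a (MICL, an inhibitory receptor that senses uric acid crystals) was the least abundant per length. It stood at 18.0, 16.8 and 19.5 CPM in DMSO replicates 1 to 3 and at 19.4, 19.7 and 15.8 CPM in RIP1i replicates 1 to 3. Both the lowest and the highest library were RIP1i libraries, so the DMSO values lay inside the RIP1i range. Its fitted difference was 0.017 on the log2 scale with an interval from -0.21 to 0.24, and its sign turned when DMSO replicate 2, RIP1i replicate 1 or RIP1i replicate 2 was left out.

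Among the RIP1i libraries the uptake receptors had the largest coefficients of variation of FPKM, 17.0% for Mrc1 and 16.5% for Clec10a, whereas among the DMSO libraries Clec4a2 had the largest, at 16.4%. Mrc1 (the mannose receptor, CD206) stood at 897, 849 and 1025 CPM in DMSO replicates 1 to 3 and at 926, 1120 and 812 CPM in RIP1i replicates 1 to 3. RIP1i again held both extremes, and the means of 924 ± 91.0 and 952 ± 156 CPM (SD, n = 3 each) differed by less than either SD. The log2 fold change was 0.044 with an interval from -0.24 to 0.33, and it turned to -0.099 without RIP1i replicate 2 and to -0.019 without DMSO replicate 2. The miRNA gene Mir511 lies inside Mrc1 on the same strand.

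Clec10a (MGL1, which binds galactose-type sugars) was the single receptor fitted lower. It stood at 39.5, 39.0 and 48.4 CPM in DMSO replicates 1 to 3 and at 36.0, 43.9 and 32.3 CPM in RIP1i replicates 1 to 3. The groups overlapped through RIP1i replicate 2, which lay above DMSO replicates 1 and 2. The log2 fold change was -0.18 ± 0.13 (SE) with an interval from -0.47 to 0.12 and an edgeR adjusted p of 0.833. It was -0.32 once RIP1i replicate 2 was left out, -0.073 with DMSO replicate 3 left out and -0.087 with RIP1i replicate 3 left out. Clec10a passed in none of these fits. Its unadjusted edgeR p was 0.018 without RIP1i replicate 2, where 1052 of 15163 genes lay under 0.05. Of the 50-base stretches of its longest coding transcript, 10.6% occurred in the paralog Mgl2, which stood 12.7-fold higher by mean FPKM. Mgl2, the receptor for N-acetylgalactosamine, stood at 323, 306 and 442 CPM in DMSO and at 324, 508 and 289.9 CPM in RIP1i, with a log2 fold change of 0.067 (interval -0.46 to 0.59). Some reads of one gene may therefore have been counted for the other.

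**Figure D4:**
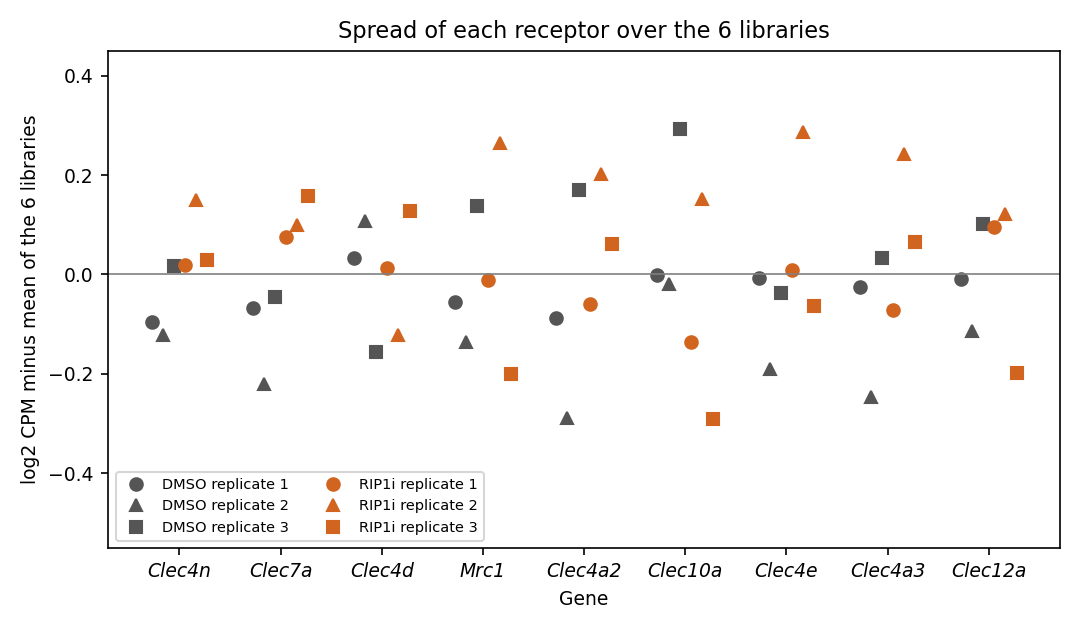
log2 CPM of each receptor in each library minus the mean of that gene over the 6 libraries, DMSO in grey and RIP1i in orange, with a marker shape per replicate number. All orange points lie above all grey points for Clec7a and, by a narrow margin, for Clec4n. DMSO replicate 2 is the lowest point for 5 genes and RIP1i replicate 2 the highest for 6.

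Much of the variation lay between libraries of the same treatment. DMSO replicate 2 was the lowest library for 5 of the 9 receptors, against 19.2% of all genes tested, and RIP1i replicate 2 was the highest for 6 of the 9, against 23.5%. Mrc1, Clec10a, Clec4a2 and Clec12a shared their top pair of libraries, RIP1i replicate 2 and DMSO replicate 3. Mgl2 and Cd209a had the same pair, whereas RIP1i replicate 2 was the lowest library for Clec5a and Clec9a. Cd209a, a dendritic cell lectin, stood at 6.77, 4.53 and 12.3 CPM in DMSO and at 6.57, 18.6 and 5.77 CPM in RIP1i. The other receptors among the 9 had other top pairs. DMSO replicate 3 and RIP1i replicate 2 also deviated alike from their group means over 8535 genes, with a correlation of 0.76. That likeness was not particular to lectins. How many of all genes have this top pair was not counted. The summed neutrophil markers were highest in the same pair, at 656 CPM in DMSO replicate 3 and 684 CPM in RIP1i replicate 2, and lowest at 252 CPM in DMSO replicate 2 and 245 CPM in RIP1i replicate 3. The summed stromal markers were lowest there, at 195 and 132 CPM. The part of these other cells in the receptor values was not tested. Without DMSO replicate 2 and RIP1i replicate 2, the libraries of extreme stromal level, Clec7a was fitted at 0.16 and Clec4n at 0.050, Clec4d was at 0.12 in place of 0.011, and Clec10a was at -0.38, Mrc1 at -0.16, Clec4a2 at -0.058, Clec4a3 at -0.019, Clec4e at -0.017 and Clec12a at -0.10. None of the 9 passed in that fit either, and for 7 of the 9 that omission removed both the lowest DMSO and the highest RIP1i value.

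The intervals bounded the differences between these libraries. They rest on the spread between libraries, which may be technical, so they may not hold for further mice or cultures. For 9 of 9 receptors the 95% interval stayed inside a 1.5-fold difference either way, against 73% of all genes and 97.9% of the 8535 genes whose mean reached 10 CPM, as it did for each receptor. The widest interval, that of Clec10a, ran from 27.9% less to 8.39% more in RIP1i. The widest upper limit was that of Clec4a3, at 32.2% more.

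The wider C-type lectin family gave no call. Of 47 further genes of the superfamily, all in the table, 34 were tested, with 21 fitted higher, 13 lower and a median log2 fold change of 0.035. The highest of them per length was Mgl2 at 174 FPKM over the 6 libraries. Clec5a (MDL-1, which signals through DAP12) was fitted at -0.00080 with an interval from -0.091 to 0.090. Ly75 (DEC-205) had 0.031 and Clec9a (DNGR-1, a dendritic cell receptor for dead cells) -0.019. Clec1a (MelLec, a receptor for fungal melanin) had the smallest p in this list, at 0.42 ± 0.17 (SE) with an edgeR adjusted p of 0.777, and its groups did not overlap. Its level was 1.99 to 2.27 CPM in DMSO and 2.58 to 3.55 CPM in RIP1i. Groups did not overlap with RIP1i higher for 1 of the 34 genes, against 7.36% of all genes. With RIP1i lower there were 0, against 6.18%. Of the 13 genes that were not tested, 5 had no read in any library.

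The signalling chain below the receptors stood at nearly equal levels. Of 18 adaptor and kinase genes 9 were fitted higher and 9 lower, none passed, and the median log2 fold change was -0.0042. Fcer1g, the FcR-gamma chain that dectin-2, MCL and Mincle need, was at 670 ± 16.3 FPKM in DMSO and 687 ± 9.35 FPKM in RIP1i (SD, n = 3 each), a log2 fold change of 0.039 (interval -0.053 to 0.13). Syk was at 0.00088 (interval -0.089 to 0.091). Vav2, an exchange factor of the pathway, had the smallest p in this list at -0.11 ± 0.041 (SE), with an edgeR adjusted p of 0.777 and no overlap between groups. Groups did not overlap with RIP1i lower for 3 of the 18 genes, against 6.18% of all genes. With RIP1i higher there were 0, against 7.36%.

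The CARD9 arm and the inhibitory arm gave no call either. Of 16 tested genes of the CARD9 complex and its NF-kB branch, 7 were fitted higher and 9 lower, with Card9 at -0.084 (interval -0.26 to 0.088), Bcl10 at -0.0050 (-0.15 to 0.14) and Malt1 at 0.13 (-0.054 to 0.31). Of 14 tested phosphatases and regulators, 6 were fitted higher and 8 lower, with Ptpn6 (SHP-1) at -0.012 and Inpp5d (SHIP-1) at -0.059. Both phosphatases are recruited by inhibitory receptor tails. The medians of the 2 lists were -0.0030 and -0.010. Groups did not overlap with RIP1i higher for 2 of the 16 and 0 of the 14 genes, against 7.36% of all genes. With RIP1i lower there was 1 in each list, against 6.18%. Trim62 had the smallest p of the CARD9 list, at 2.99 to 3.09 CPM in DMSO and 2.31 to 2.75 CPM in RIP1i.

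Genes known to respond to dectin ligation were split, with 11 of 21 tested fitted higher, 10 lower and none passing. The chemokine gene Ccl17 stood at 395, 399 and 461 CPM in DMSO replicates 1 to 3 and at 491, 510.5 and 543 CPM in RIP1i replicates 1 to 3. Its groups did not overlap, and its log2 fold change was 0.30 ± 0.071 (SE) with an edgeR adjusted p of 0.777. Groups did not overlap with RIP1i higher for 3 of the 21 genes, against 7.36% of all genes. With RIP1i lower there were 0, against 6.18%. Of 13 transcription factors of the macrophage and dendritic cell programmes, 5 were fitted higher and 8 lower, with Irf4, a factor of both lineages, at 0.26 (interval -0.0042 to 0.52) and Spi1, which encodes PU.1, at 0.041 (interval -0.062 to 0.14). None passed.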

How the data were processed

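RNA-seq of 3 DMSO and 3 RIP1i libraries was analysed, with groups taken from the sample titles. The authors deposited raw read counts per gene and FPKM values per gene; the tools named in the submitters' processing notes are STAR 2.5.3a for build mm10, CASAVA 1.8.4, Subread 1.4.6-p3 with featureCounts, and DESeq2 1.14.0. What each tool did, the annotation and the strand setting are not stated there. The counts were filtered with filterByExpr (minimum count 10, minimum total 15), scaled by TMM and tested, 2-sided, by quasi-likelihood in edgeR (version 4.0.16, R version 4.3.3), with treatment as the only term. SE came from the F statistic and intervals from the t distribution. DESeq2 1.42.0 and limma 3.58.1 served as alternatives. The edgeR step was tested on simulated counts of this comparison (14633 genes), with changed genes drawn only from those above a minimum level. It called 85.1% of 67 genes changed 1.5-fold and 100% of 67 changed 2-fold. The simulated libraries were independent draws, without the shared deviations of the real libraries, so recovery in the real data may be lower. Library totals were 40264902 to 44862310 counts. Libraries of a group differed by 11.2 to 32.2 times the sampling noise (chi-square per degree of freedom). Within a group none was therefore a resequenced copy of another. Pairs across groups were not compared in this way, and repeat preparations of the same RNA or culture were not tested for. The receptors and gene lists were chosen with earlier results of these data known. All 9 receptors are named; of each further list, genes of smallest p or highest level and some fixed genes are named. Gene positions came from GENCODE M21 and promoters from RefSeq GRCm38.p6; 2 receptors had no promoter entry and are named only.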

Additional observations from a re-analysis of the deposited data

How the results depend on the processing

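No receptor was called under any setting tried. The settings were upper-quartile and median-of-ratios scaling, a filter of 1 CPM in 3 libraries or none, DESeq2, limma-voom, limma-trend on FPKM, the replicate block and each library left out. The adjusted p of Clec7a ran from 0.259 (DESeq2) to 0.998 over these settings. Thresholds of 0.01 and 0.1 in the main edgeR fit could call no gene, since its smallest adjusted p was 0.777. Over the whole table the count of called genes was 0 except for 2 with DESeq2 and 9 with limma-trend on log2(FPKM + 1) without a filter, and it was 0 without any 1 library. Of 90 receptor fold changes refitted under 10 of the settings, 89 kept their direction and 1 turned, Clec4d at -0.0011 with upper-quartile scaling. Of 54 refitted without 1 library, 46 kept it; the ranges that crossed 0 were -0.051 to 0.11 for Clec12a, -0.065 to 0.063 for Clec4d and -0.099 to 0.14 for Mrc1. With both replicates numbered 2 left out, an alternative chosen after seeing the data, Clec12a was at -0.10, Clec4a2 at -0.058, Clec4a3 at -0.019, Clec4e at -0.017 and Mrc1 at -0.16; the cause was not tested. Same-numbered libraries did not deviate together (correlations across genes of -0.059, -0.63 and -0.66). The highest correlation, 0.76, was that of DMSO replicate 3 with RIP1i replicate 2. Deviations from a mean of 3 libraries depend on each other, so these values cannot show whether the number marks a shared culture or animal. With the replicate block 0 genes and 0 receptors were called, 413 genes had an unadjusted p under 0.05 in place of 923, and Clec7a was at 0.22.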
